A study of Mus musculus with 8 samples.

Results

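Transcripts of 9 Toll-like receptor genes and of the adaptor gene Myd88 were followed in immature myeloid cells (IMCs) of the mouse. The members are the rows of the deposited count table named Tlr1, Tlr2, Tlr3, Tlr4, Tlr6, Tlr7, Tlr8, Tlr9, Tlr13 and Myd88. All 10 were found among the 24062 genes of the table, and all 10 were among the 13197 genes that passed the filter on low counts. The IMCs were grown from bone marrow of 2-month-old C57BL/6 mice in M-CSF at 40 ng per mL over 3 days. M-CSF is the growth factor of the monocyte and macrophage lineage. There were 4 groups of 2 libraries. PARP1CKO IMCs carried PARP1 flox/flox with lysozyme-Cre, and their littermate controls, PARP1 WT, carried PARP1 flox/flox without Cre. PARP2CKO IMCs carried PARP2 flox/flox with lysozyme-Cre, and their littermate controls, PARP2 WT, carried PARP2 flox/flox without Cre. The WT groups therefore hold floxed alleles, and no group lacks them. Lysozyme-Cre is driven by a promoter of myeloid cells, so other cells in a culture would keep the allele. The labels do not say whether the libraries of a group came from separate mice or cultures, so p-values measure the spread between these libraries, which may be technical.

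Toll-like receptors are membrane proteins whose outer leucine-rich repeats bind molecules of microbes and whose inner TIR domain recruits adaptors. Tlr1, Tlr2, Tlr4 and Tlr6 act at the cell surface, where they sense bacterial lipoproteins and lipopolysaccharide. Tlr3, Tlr7, Tlr8, Tlr9 and Tlr13 act in endosomes on nucleic acids. Myd88 couples all of the listed receptors except Tlr3 to the IRAK kinases, and from there to NF-kB and interferon regulatory factors. In macrophages and their precursors these receptors start the production of cytokines and chemokines.

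In these IMCs no listed gene passed the test for a change with the deletion of PARP1 or of PARP2. Of all genes tested, 0.106% and 0.053% passed in these comparisons. The difference that passed lay between the mouse lines: Tlr8 was 45.3% higher in PARP2 WT than in PARP1 WT IMCs, groups that both lack Cre. Between these controls 3.16% of all genes tested passed. Between the CKO groups Tlr8 and Tlr13 were higher in the PARP2 line, and Tlr3 and Tlr9 were lower, where 10.3% of all genes tested passed. Of these 4 calls that of Tlr8 held in 17 of 17 alternative settings, and the other 3 ended without PARP2CKO replicate 1 or without PARP1CKO replicate 2.

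The promoters of Tlr8, Tlr13, Tlr9 and Tlr3 are shown because these genes passed between the CKO groups. Each run holds the 250 bases before the transcription start in RefSeq on GRCm38.p6 (mm10), read 5′ to 3′ on the strand of the gene. Capitals mark matches on either strand to the core site of the myeloid factor PU.1, GAGGAA or TTCCTC, to an element of the type found in interferon-stimulated genes, GAAA or TTTC repeated after 2 bases of any kind, or to a TATA box, TATAAA or TTTATA.
Tlr8, chrX:167264330-167264579, minus strand: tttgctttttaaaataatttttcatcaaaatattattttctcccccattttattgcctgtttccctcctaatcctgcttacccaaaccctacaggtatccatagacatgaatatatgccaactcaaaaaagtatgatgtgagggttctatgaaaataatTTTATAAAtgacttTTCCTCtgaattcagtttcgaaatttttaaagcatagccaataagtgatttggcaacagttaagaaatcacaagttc
Tlr13, chrX:106143025-106143274, plus strand: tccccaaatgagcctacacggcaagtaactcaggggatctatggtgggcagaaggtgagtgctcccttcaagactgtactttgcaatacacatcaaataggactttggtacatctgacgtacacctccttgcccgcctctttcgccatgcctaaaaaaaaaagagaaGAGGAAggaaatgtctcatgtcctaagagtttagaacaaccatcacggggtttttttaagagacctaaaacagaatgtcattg
Tlr9, chr9:106222348-106222597, plus strand: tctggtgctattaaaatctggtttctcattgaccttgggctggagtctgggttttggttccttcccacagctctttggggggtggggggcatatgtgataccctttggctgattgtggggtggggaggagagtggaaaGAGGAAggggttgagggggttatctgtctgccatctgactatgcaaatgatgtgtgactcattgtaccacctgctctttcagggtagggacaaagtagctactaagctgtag
Tlr3, chr8:45410381-45410630, minus strand: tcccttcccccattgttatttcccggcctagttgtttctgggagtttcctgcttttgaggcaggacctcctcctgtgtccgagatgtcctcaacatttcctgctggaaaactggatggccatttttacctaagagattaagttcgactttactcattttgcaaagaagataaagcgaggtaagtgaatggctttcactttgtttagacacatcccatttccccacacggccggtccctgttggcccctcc

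Matches were searched from 250 bases before to 50 bases after the start. The Tlr8 promoter held the PU.1 core 77 bases before the start, and a pair of overlapping TATA boxes began 91 and 89 bases before it. The PU.1 core stood 83 bases before the start of Tlr13 and 112 bases before that of Tlr9, which had a further match 13 bases into the transcript. Tlr3 had no match to any of the 3 motifs. Its run lies inside the gene span given below, which starts further upstream, so this holds for the RefSeq start only. The run of Tlr13 also overlaps its gene span. Of the listed genes 8 had a promoter entry (Tlr4 and Tlr7 had none), with 10 promoters in all, since Tlr1 and Tlr6 had 2 each. The PU.1 core was in 4 of the 10, those of Tlr8, Tlr9 and Tlr13 and 1 of Tlr1, against 28.3% of 32851 mouse promoters. The interferon-type element was found in Myd88, 40 bases before the start, and in 1 of the Tlr6 promoters, where 2 overlapping matches began 116 and 110 bases before it. This element was in 3.44% of all promoters and the TATA box in 13.6%. The 250 bases before the start of Myd88, and those of the Tlr6 promoter with this element, lie inside the gene spans given below. These matches too hold for the RefSeq starts only. Besides Tlr8, Myd88 held TATA boxes that began 164 and 160 bases before the start. The other Tlr6 promoter held them 180, 150 and 109 bases before it. A match describes letters only.

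On mm10 the genes of Tlr7 and Tlr8, which belong to the branch of the family that senses single-stranded RNA, are neighbors on the X chromosome with 40.599 kb between them. Tlr8 spans chrX:167242696-167264329 and Tlr7 chrX:167304929-167330558, both on the minus strand. Tlr13, the receptor for a bacterial ribosomal RNA sequence, lies on the plus strand at chrX:106143204-106160493. Tlr1 (chr5:64924679-64933563) and Tlr6 (chr5:64952031-64960097) are close paralogs that each pair with Tlr2, and 18.467 kb separate them. The remaining genes are Tlr2 at chr3:83836272-83841767, Tlr3 at chr8:45395665-45411080, Tlr4 at chr4:66827584-66930284, Tlr9 at chr9:106222598-106226883 and Myd88 at chr9:119335934-119341411.

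Read sharing was measured with windows of 75 bases, the length of the reads, over the exons of the annotation. Tlr1 and Tlr6 had 340 windows in common, which made up most of the 10.6% of Tlr1 windows and all of the 9.25% of Tlr6 windows shared with another gene. Their counts are therefore partly uncertain. Tlr3 shared 4.28% of its windows with the antisense gene Gm45542, and Myd88 shared 5.68% with Acaa1a on the opposite strand. Whether counting used the strand is not given, so reads of these pairs could be mixed. Tlr2, Tlr4, Tlr7, Tlr8, Tlr9 and Tlr13 shared none.

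The libraries held between 37852450 and 61845125 counts on genes, so a level of 3 counts corresponded to between 0.0503 and 0.0775 counts per 1000000 (CPM, scaled by TMM factors). Every member was far above that level, from 8.03 CPM (Tlr3) to 521 CPM (Tlr13), and the least counted member, Tlr3, had 4361 counts over the 8 libraries. The targeted genes followed the labels. Parp1 fell from 202 and 211 CPM in PARP1 WT to 63.2 and 59.1 CPM in PARP1CKO (log2 fold change -1.75 ± 0.178, adjusted p = 0.0134). Parp2 fell from 48.2 and 48.3 CPM without Cre to 25.7 and 25.6 CPM with it (log2 fold change -0.91 ± 0.0453, adjusted p = 0.000139). Unless another test or set of libraries is named, adjusted p-values come from edgeR's quasi-likelihood test over all 13197 genes with Benjamini-Hochberg adjustment. A gene is said to pass where the adjusted p of the test named is under 0.05. Log2 fold changes are given ± their standard error. The 8 listed markers of monocytes and macrophages summed to between 4427 and 5153 CPM, so markers of that lineage were present. The study marked IMCs by CD11b and Gr1 on the cell surface, which this sum does not measure. Neutrophil markers, 8 of 9 listed being in the table, summed to between 1882 and 2395 CPM. Y-linked genes were expressed in all 8 libraries, and Xist reached at most 0.0577 CPM. PARP1CKO replicate 2 stood apart with 156 CPM of Y-linked genes against 216 to 235 CPM in the other libraries. Eif2s3y (32.7 CPM against 70.8 to 82.8) and Ddx3y (67.3 CPM against 80.6 to 95.8) were lower there. Uty (29.3 CPM) and Kdm5d (26.6 CPM) lay within the range of the other libraries.

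Between genes, levels were compared as CPM per kilobase of exon, averaged over the 8 libraries. Tlr13 was highest at 110.04 ± 7.09 (SD, n = 8), followed by Tlr7 at 38.2 ± 3.86. Myd88 stood at 25.05 ± 0.840 and Tlr8 at 22.8 ± 5.10. The surface receptors Tlr2 (17.5 ± 1.42), Tlr4 (16.8 ± 0.869) and Tlr1 (10.8 ± 0.922) came next. The lowest levels per kilobase were those of Tlr6 (5.35 ± 0.184), Tlr9 (4.43 ± 1.01) and Tlr3 (2.12 ± 0.337).

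**Figure D1:**
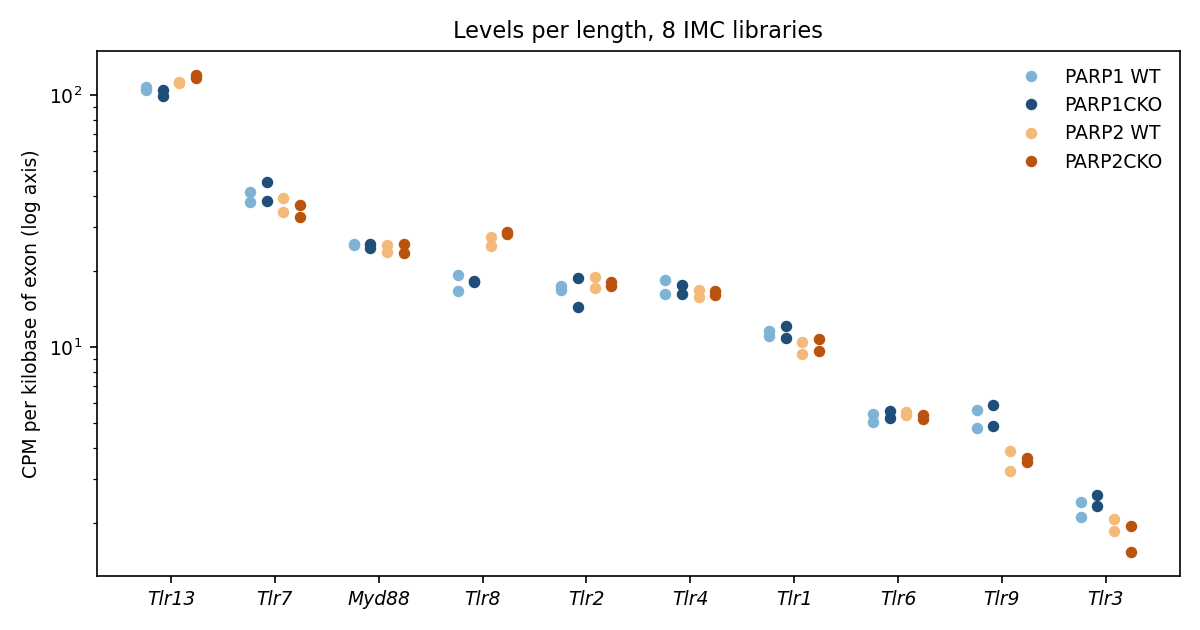
CPM per kilobase of exon (log axis) of each listed gene, ordered by its mean, with 1 point per library coloured by group. Tlr13 lay above every other gene in all 8 libraries, and Tlr8 lay below Myd88 in the 4 PARP1-line libraries and above it in the 4 of the PARP2 line.

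Neighbors in this order did not overlap for Tlr13 over Tlr7, Tlr7 over Myd88, Tlr4 over Tlr1, Tlr1 over Tlr6, and Tlr9 over Tlr3. The ranges overlapped for Myd88 and Tlr8, Tlr8 and Tlr2, Tlr2 and Tlr4, and Tlr6 and Tlr9, so these pairs were not separated over the 8 libraries. In the PARP2 line alone, Tlr8 (25.3 to 28.7) lay above Tlr2 (17.2 to 19.0), and Tlr2 above Tlr4 (15.9 to 16.9). There Tlr6 (5.21 to 5.52) also lay above Tlr9 (3.23 to 3.89). In the PARP1 line each of these pairs overlapped, and Myd88 (24.8 to 25.8) lay above Tlr8 (16.8 to 19.5). Myd88 was above Tlr8 in 4 of 8 libraries. Per kilobase of coding sequence, Myd88 moved above Tlr7 and Tlr4 above Tlr8, the ranges of Tlr6 and Tlr9 no longer overlapped, and those of Tlr9 and Tlr3 did. With the longest transcript, Tlr4 moved above Tlr2 without overlap. The order below Tlr13 therefore rests in part on the length used. Tlr13 stayed first with exon, transcript and coding lengths.

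Of the summed level of the 9 receptors per kilobase of exon, the endosomal receptors made up between 75.9% and 79.2% in every library. Tlr13 alone made up between 44.0% and 50.2%. The share of Tlr8 was between 7.51% and 8.76% in the PARP1 line and between 11.2% and 12.3% in the PARP2 line.

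The first comparison asks what the loss of PARP1 changes in IMCs. None of the 10 genes passed, where 0.106% of all genes tested did (14 genes). None had an unadjusted p-value under 0.05, against 11.3% of all genes tested, and the likelihood-ratio test and DESeq2 called none either. The smallest adjusted p-value among the members was 0.654, for Tlr13. In none of the 10 were both PARP1CKO values above, or both below, the pair of control values, where 41.2% of all genes tested were separated in this way in either direction.

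Among the surface receptors, Tlr2, the shared partner of Tlr1 and Tlr6, had 51.0 and 52.6 CPM in PARP1 WT and 43.6 and 56.9 CPM in PARP1CKO IMCs. The CKO libraries enclosed the controls, and the log2 fold change was -0.05 with a 95% interval from -0.29 to 0.19. Tlr4, the lipopolysaccharide receptor, had 102.6 and 90.5 CPM in PARP1 WT and 90.8 and 98.3 CPM in PARP1CKO (log2 fold change -0.03, interval from -0.18 to 0.12). Both CKO values lay between the controls.

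Tlr1 had 38.9 and 37.2 CPM in PARP1 WT and 36.5 and 40.5 CPM in PARP1CKO. Tlr6 had 20.3 and 18.7 CPM in the controls and 19.6 and 20.9 CPM in PARP1CKO. In both genes the groups overlapped. Myd88 had the narrowest spread, with 66.4 and 65.5 CPM in PARP1 WT and 66.1 and 63.8 CPM in PARP1CKO, and the interval of its difference ran from -9.23% to 6.93%.

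The endosomal receptors gave the same result. Tlr7 had 169 and 155 CPM in PARP1 WT and 155 and 184 CPM in PARP1CKO, and Tlr8 had 60.2 and 69.8 CPM in PARP1 WT and 64.9 and 65.6 CPM in PARP1CKO. The fitted difference of Tlr8 was 0.240% (interval from -9.97% to 11.6%). Tlr13 had 451 and 465 CPM in the controls and 453 and 427 CPM in PARP1CKO, a difference of -3.89% (interval from -10.5% to 3.18%).

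Tlr9, which binds DNA with unmethylated CpG, had 19.6 and 16.7 CPM in PARP1 WT and 16.9 and 20.6 CPM in PARP1CKO. Tlr3, which binds double-stranded RNA, had 12.7 and 11.02 CPM in PARP1 WT and 12.2 and 13.5 CPM in PARP1CKO. These genes have fewer counts and wider intervals: that of Tlr9 ran from -14.5% to 25.4% and that of Tlr3 from -10.7% to 32.3%. Larger changes than these bounds lay outside the intervals, and smaller ones could not be told from the spread.

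**Figure D2:**
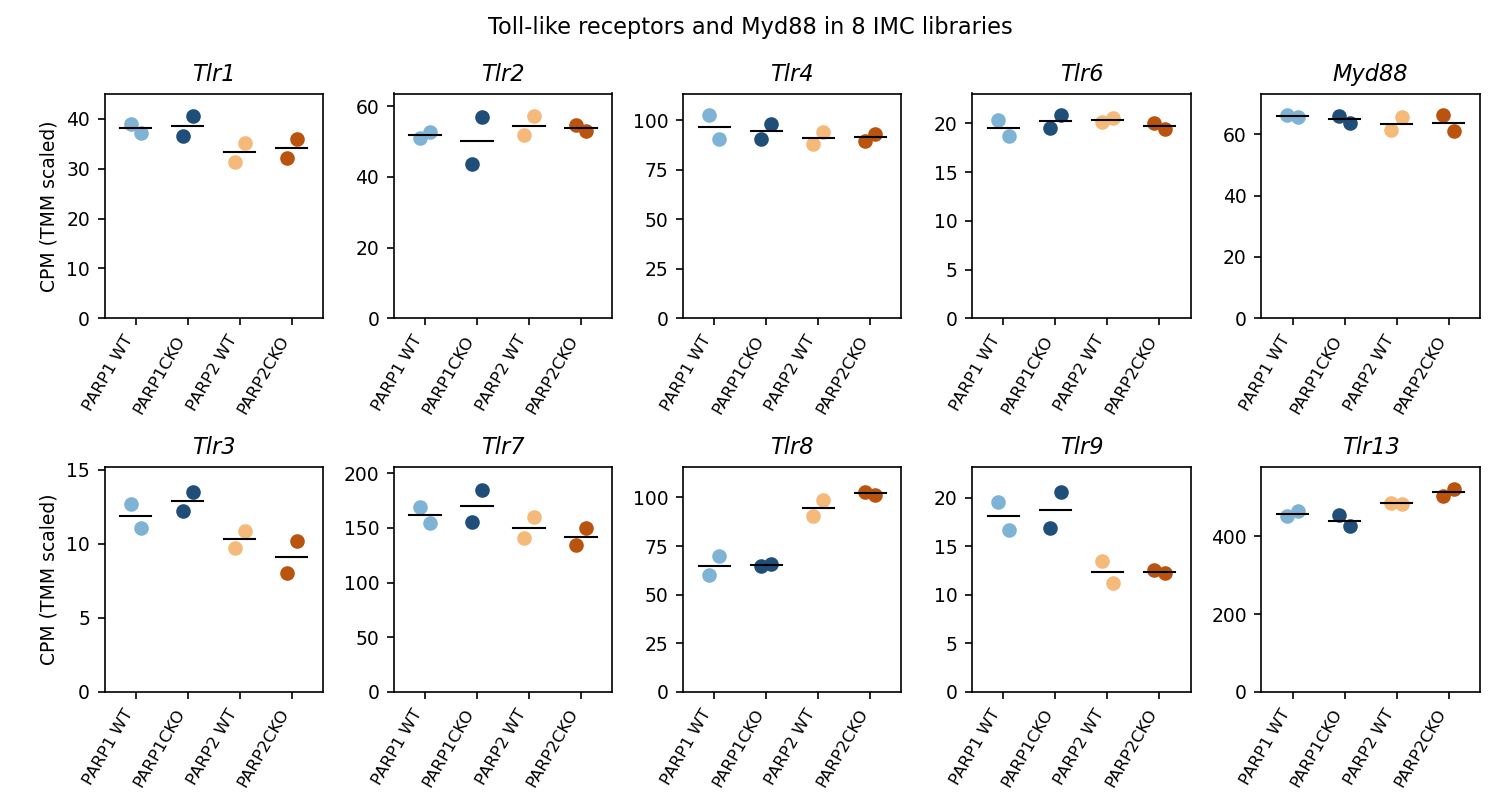
CPM (TMM scaled) of each listed gene in each of the 8 libraries, with a bar at the mean of each group of 2. CKO libraries overlap or adjoin their own controls in most panels, while Tlr8 lies between 60.2 and 69.8 CPM in the PARP1 line and between 90.7 and 103 CPM in the PARP2 line.

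The second comparison asks the same of PARP2. Again none of the 10 genes passed, where 0.053% of all genes tested did (7 genes). None had an unadjusted p-value under 0.05, against 4.83% of all genes tested, and neither the likelihood-ratio test nor DESeq2 called any. The smallest adjusted p-value among the members was 0.954. The groups did not overlap for 3 of the 10, Tlr8 and Tlr13 with higher and Tlr6 with lower values in PARP2CKO, where 37.2% of all genes tested were separated in either direction.

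Tlr8 stood at 90.7 and 98.5 CPM in the PARP2 WT libraries, against 103 and 101 CPM after PARP2 deletion, a log2 fold change of 0.11 ± 0.0661. Tlr13 stood at 485 and 483 CPM in the PARP2 WT libraries, against 504 and 521 CPM after PARP2 deletion, a log2 fold change of 0.08 ± 0.0451. Both CKO libraries were above both controls for these genes, by 7.96% on average for Tlr8 (interval from -2.68% to 19.8%) and by 5.84% for Tlr13 (interval from -1.40% to 13.6%). Tlr6 had 20.1 and 20.6 CPM in the controls and 20.05 and 19.4 CPM in PARP2CKO.

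For the other members the groups overlapped. Tlr3 stood at 9.74 and 10.8 CPM in the PARP2 WT libraries, against 8.03 and 10.2 CPM after PARP2 deletion, with PARP2CKO replicate 1 the lowest library of all (log2 fold change -0.18 ± 0.126). Tlr7 stood at 140.5 and 160.0 CPM in the PARP2 WT libraries, against 134 and 149.7 CPM after PARP2 deletion. Tlr9 had 13.5 and 11.2 CPM in PARP2 WT, and its CKO libraries at 12.6 and 12.2 CPM lay between them.

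Tlr1 stood at 31.5 and 35.1 CPM in the PARP2 WT libraries, against 32.3 and 36.0 CPM after PARP2 deletion. Tlr2 had 51.9 and 57.2 CPM against 54.8 and 53.0 CPM, and Tlr4 had 88.3 and 93.98 CPM against 89.8 and 93.4 CPM. In Tlr2 and Tlr4 both CKO libraries fell inside the range of the controls. Myd88 stood at 61.4 and 65.6 CPM in the PARP2 WT libraries, against 66.3 and 61.1 CPM after PARP2 deletion, a difference of 0.389% (interval from -7.43% to 8.87%).

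**Figure D3:**
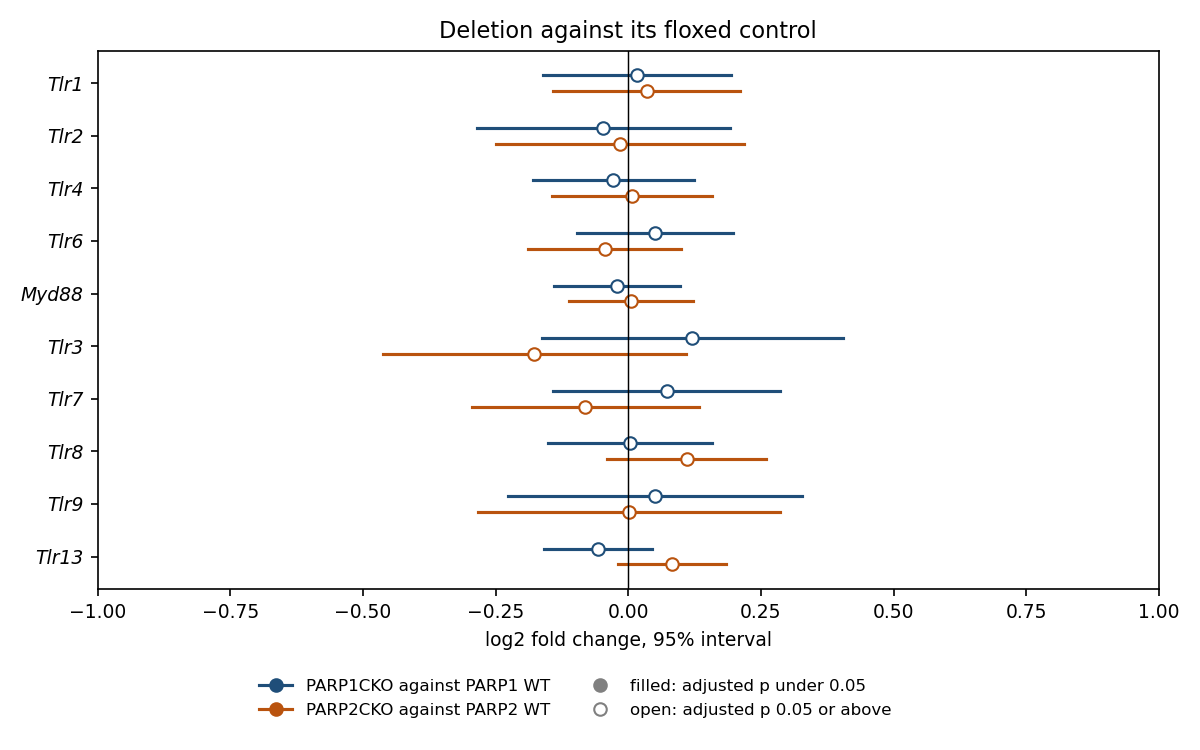
Log2 fold change of each listed gene in PARP1CKO against PARP1 WT and in PARP2CKO against PARP2 WT (x axis), with the 95% interval of the quasi-likelihood fit. Every interval crosses 0 and every point is open, since no adjusted p-value was under 0.05.

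The third comparison tests whether the effect of PARP2 deletion differed from that of PARP1 deletion. No listed gene passed and none had an unadjusted p-value under 0.05, where 0.0152% of all genes tested passed (2 genes) and 7.69% had such an unadjusted value. The smallest values were those of Tlr13, whose fold change was higher in the PARP2 line by 0.14 on the log2 scale (standard error 0.0638, adjusted p = 0.656), and of Tlr3, whose difference was -0.30 ± 0.178 (adjusted p = 0.731). The likelihood-ratio test and DESeq2 also called none. Over the 10 genes the median log2 fold change was 0.0096 for PARP1 deletion and 0.0034 for PARP2 deletion, and over all genes tested it was 0.0059 and -0.0014.

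The fourth comparison sets the floxed controls of the 2 lines against each other. The lines differ in the floxed gene and in litter, and other factors such as the day of culture or sequencing are not given in the sources used here, so line, litter and such factors cannot be told apart. Parp2 itself passed between these controls, with 39.1 and 40.8 CPM in PARP1 WT and 48.2 and 48.3 CPM in PARP2 WT (log2 fold change 0.27 ± 0.0445, adjusted p = 0.0159). Of the 10 genes 1 passed, Tlr8, where 3.16% of all genes tested did (417 genes). Tlr8 had 60.2 and 69.8 CPM in PARP1 WT and 90.7 and 98.5 CPM in PARP2 WT IMCs (log2 fold change 0.54 ± 0.0675, adjusted p = 0.00550), a level 45.3% higher with an interval from 30.7% to 61.6%. Both PARP2 WT libraries were above both PARP1 WT libraries, where 51.9% of all genes tested were separated in either direction. This call held in 17 of 17 alternative settings, with log2 fold changes from 0.44 to 0.65.

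Tlr9 had 19.6 and 16.7 CPM in PARP1 WT and 13.5 and 11.2 CPM in PARP2 WT. The groups did not overlap, as was so for 51.9% of all genes tested. Its log2 fold change of -0.54 ± 0.124 had an adjusted p of 0.0540 and so did not pass. It passed in 7 of 17 alternative settings, and over the 17 the adjusted p-values ranged from 0.00192 (likelihood-ratio test) to 0.274. Tlr1 had 38.9 and 37.2 CPM against 31.5 and 35.1 CPM (log2 fold change -0.20 ± 0.0783, unadjusted p = 0.0346, adjusted p = 0.226), likewise without overlap. With Tlr8 and Tlr9 it made up the 3 of 10 members with an unadjusted p-value under 0.05, against 18.9% of all genes tested. Log2 fold changes of the other members lay between -0.20 (Tlr3) and 0.08 (Tlr13).

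The CKO groups of the lines were compared after these values had been seen. This comparison differs in line and in the deleted gene at once, and it uses other libraries than the comparison of the controls. Of the 10 genes 4 passed, where 10.3% of all genes tested did (1363 genes). Tlr8 had 64.9 and 65.6 CPM in PARP1CKO and 103 and 101 CPM in PARP2CKO (log2 fold change 0.65 ± 0.0672, adjusted p = 0.00113). Tlr13 was higher by 0.22 ± 0.0451 (adjusted p = 0.0196), with 453 and 427 CPM against 504 and 521 CPM.

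Tlr9 had a log2 fold change of -0.59 ± 0.124 (adjusted p = 0.0205), with 16.9 and 20.6 CPM against 12.6 and 12.2 CPM. Tlr3 had 12.2 and 13.5 CPM in PARP1CKO and 8.03 and 10.2 CPM in PARP2CKO (log2 fold change -0.50 ± 0.126, adjusted p = 0.0390). Of these calls only that of Tlr8 held in 17 of 17 alternative settings. Tlr9 passed in 14, Tlr13 in 13 and Tlr3 in 11 of 17. Without PARP2CKO replicate 1, 1 of the 10 genes passed, Tlr8, where calls over all genes tested fell from 10.3% to 1.75%. Without PARP1CKO replicate 2 (3.4% of all genes) the adjusted p-values of Tlr3, Tlr9 and Tlr13 were 0.185, 0.109 and 0.120. Without PARP2CKO replicate 2 those of Tlr9 and Tlr13 were 0.0902 and 0.0909, and without either PARP2 WT library that of Tlr3 was 0.0519. In a fit of the 4 CKO libraries alone 2 genes passed, Tlr8 and Tlr9, where 7.69% of all genes tested did. Tlr7 passed as the fifth gene with DESeq2 and with no filter (log2 fold change -0.26 in both) and without PARP1CKO replicate 1 (-0.38), and Tlr2 passed without PARP1CKO replicate 2 (0.31, adjusted p = 0.0497).

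**Figure D4:**
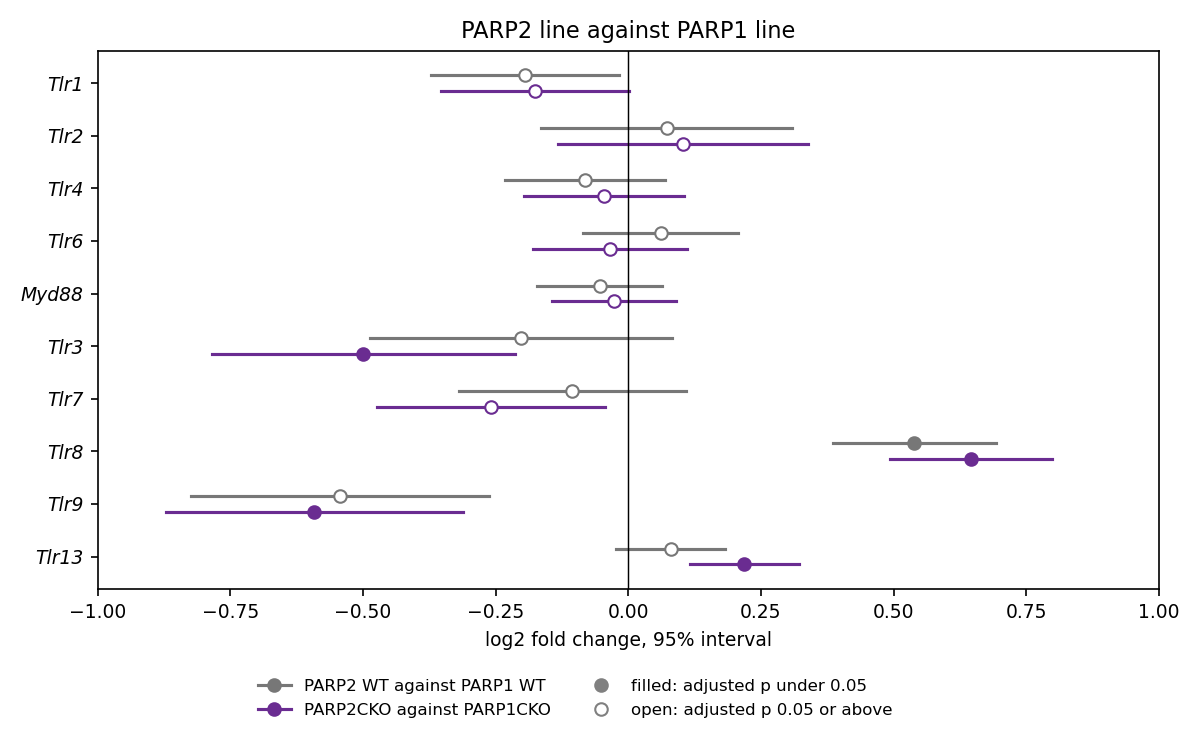
Log2 fold change of each listed gene in the PARP2 line against the PARP1 line (x axis), for the floxed controls and for the CKO groups, with 95% intervals and filled points where the adjusted p was under 0.05. Tlr8 is filled in both comparisons at 0.54 and 0.65, and Tlr9 lies at -0.54 and -0.59.

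Over both genotypes, all 4 PARP2-line libraries lay on 1 side of all 4 PARP1-line libraries for 5 of the 10 genes, where 20.4% of all genes tested were separated in this way. Tlr8 and Tlr13 were on the higher side in the PARP2 line, and Tlr1, Tlr3 and Tlr9 on the lower. The gap was widest for Tlr8, from 69.8 to 90.7 CPM. For Tlr1 it was narrow, from 36.5 to 36.0 CPM, and for Tlr3 from 11.02 to 10.8 CPM.

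Tlr8 was also set against its neighbor Tlr7 within each library, a ratio that no scaling between libraries can alter and that was chosen after the values had been seen. The count of Tlr8 was 35.7% and 45.1% of that of Tlr7 in PARP1 WT, and 41.7% and 35.6% in PARP1CKO. In the PARP2 line it was 64.6% and 61.5% in the controls, and 76.7% and 67.6% after PARP2 deletion. The lines did not overlap. The genes most like Tlr8 by Pearson correlation of log2 CPM over the 8 libraries were Daglb (r = 0.991), Gadd45g (r = 0.988) and Adap2 (r = 0.987). Their levels also split by line, as with Daglb at 30.5 to 35.3 CPM in the PARP1 line and 45.3 to 54.3 CPM in the PARP2 line, so the likeness describes that split above all.

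Of the lists of markers of other cells, 4 had summed levels that did not overlap between the lines, each lower in the PARP2 line. B cells and plasmacytoid dendritic cells are known for Tlr9 and Tlr7. The 6 listed B cell markers, of which 5 passed the filter, summed to between 27.6 and 40.0 CPM in the PARP1 line and between 7.88 and 10.7 CPM in the PARP2 line. The 6 markers of plasmacytoid dendritic cells, of which 5 passed, summed to between 124 and 149 CPM against 106 and 115 CPM. Those of basophils and mast cells summed to between 12.5 and 18.1 CPM against 6.42 and 10.6 CPM, and those of erythroid cells to between 3.12 and 6.24 CPM against 1.44 and 1.80 CPM. Taken singly, all 5 B cell markers and all 5 basophil and mast cell markers that passed the filter were lower in all 4 PARP2-line libraries, as were 3 of 5 of plasmacytoid dendritic cells and 2 of 3 of erythroid cells. Of all genes tested, 20.4% had lines that did not overlap, in either direction. The 5 markers of conventional dendritic cells had overlapping sums, from 15.3 to 22.0 CPM against 10.6 to 15.6 CPM. No listed marker of B cells or of either kind of dendritic cell was at 0 in all libraries. In bulk RNA, fewer cells of a type and less RNA per cell cannot be told apart, and the part of these cells in the values of Tlr9, Tlr7, Tlr3 and Tlr1 was not tested.

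Other markers were higher in the PARP2 line or differed in direction within a list, and their counts are to be read beside the 20.4% of all genes tested whose lines did not overlap. The summed monocyte and macrophage markers overlapped between the lines, from 4427 to 4741 CPM and from 4678 to 5153 CPM, but 2 of the 8, Mertk and Fcgr1, were higher in all 4 PARP2-line libraries. Mertk, a macrophage receptor for dying cells, had between 35.0 and 43.2 CPM in the PARP1 line and between 55.3 and 77.7 CPM in the PARP2 line (log2 fold change between the controls 0.76, adjusted p = 0.00529). Of 5 osteoclast markers, Ctsk was higher, with 11.7 to 19.4 CPM against 22.8 to 39.4 CPM (log2 fold change between the controls 1.31, adjusted p = 0.0267), and Mmp9 was lower, with 46.7 to 56.2 CPM against 21.5 to 32.5 CPM (-0.63, adjusted p = 0.0112). Acp5 had 2.76 to 3.43 CPM against 5.55 to 8.06 CPM and did not pass between the controls (0.83, adjusted p = 0.0557). Of 8 neutrophil markers, 2 were higher (Mpo and Elane) and 2 lower (Retnlg and Cxcr2) in all PARP2-line libraries. The part of these cells in the values of Tlr8 and Tlr13 was not tested.

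Interferon response genes also differed between libraries. The 12 listed genes, all of which passed the filter, summed to 241 and 156 CPM in PARP1 WT and to 203 and 331 CPM in PARP1CKO. In the PARP2 line they summed to 119 and 126 CPM in PARP2 WT and to 85.8 and 109 CPM in PARP2CKO. The lowest library of the PARP1 line was thus above the highest of the PARP2 line. Within the PARP1 line, PARP1CKO replicate 2 was highest, followed by PARP1 WT replicate 1, PARP1CKO replicate 1 and PARP1 WT replicate 2. Tlr3, Tlr6, Tlr7 and Tlr9 had their 4 PARP1-line libraries in this same order, which was so for 5.49% of all genes tested, and the other 6 members did not. In the PARP2 line none of the 10 followed the order of the interferon list, where 6.08% of all genes tested did. The part of the interferon response in these values was not tested.

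**Figure D5:**
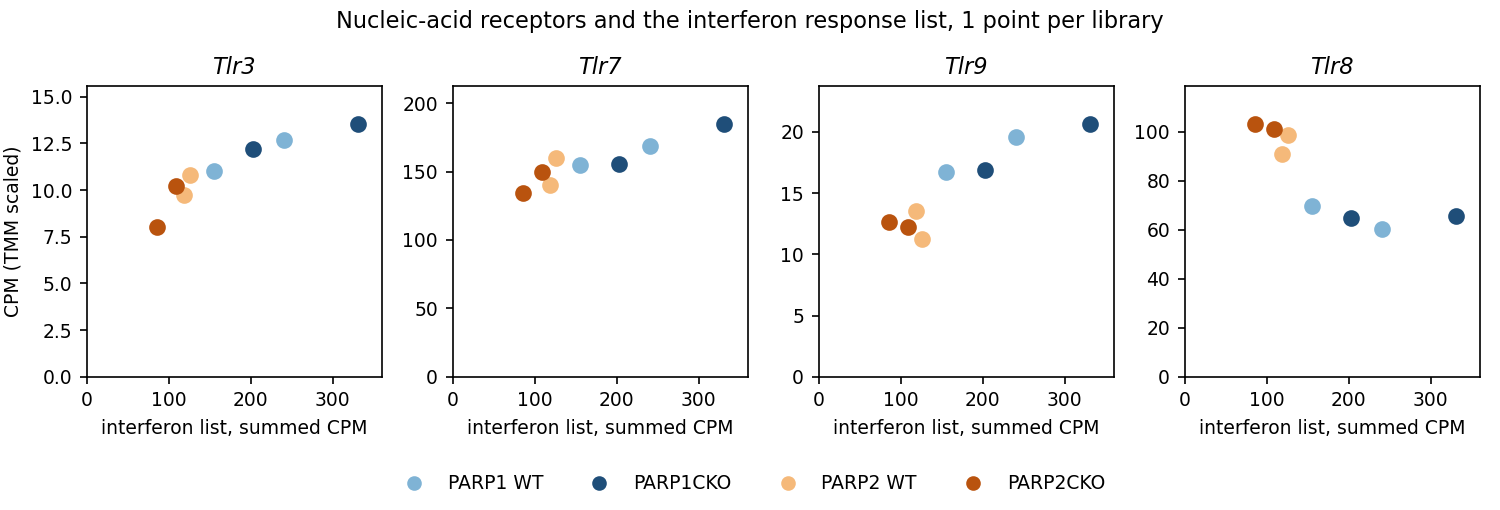
CPM (TMM scaled, y axis) of Tlr3, Tlr7, Tlr9 and Tlr8 against the summed CPM of the 12 interferon response genes (x axis), with 1 point per library coloured by group. In the PARP1 line, between 156 and 331 CPM on the x axis, the first 3 receptors rank as the interferon sum does, and Tlr8 does not.

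The other genes of the pathway were taken from a list of 54, all of which passed the filter. In PARP1CKO and in PARP2CKO none of the 54 passed against the littermate controls, and 7 and 9 had an unadjusted p-value under 0.05 (12.96% and 16.7%, against 11.3% and 4.83% of all genes tested). The median log2 fold changes of the list were 0.0058 and 0.0093. The likelihood-ratio test called 1 of the 54 in PARP1CKO (Cd36) and none in PARP2CKO, and DESeq2 called 1 in each, Cd36 and Ctss. In the test of the difference between the deletions none passed, 7 had an unadjusted p-value under 0.05 (12.96%, against 7.69% of all genes tested), and both other tools called Cd36.

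Among coreceptors and accessory proteins, Cd36, a scavenger receptor that assists Tlr2 with Tlr6, had 1603 and 1612 CPM in PARP1 WT and 1271 and 1133 CPM in PARP1CKO. Its log2 fold change of -0.42 ± 0.0724 had an adjusted p of 0.11. Cd36 passed here in 4 of 17 alternative settings, and over the 17 its log2 fold changes ranged from -0.51 to -0.34. In the PARP2 line Cd36 had 2185 and 2002 CPM in the controls and 2309 and 2540 CPM in PARP2CKO (log2 fold change 0.21 ± 0.0722, adjusted p = 0.888). The difference between the effects was 0.63 ± 0.102 (adjusted p = 0.122). It passed in 4 of 16 alternative settings, and over the 16 it ranged from 0.55 to 0.72.

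Among the proteins that fold, transport and cut endosomal receptors, Hsp90b1, the chaperone of most Toll-like receptors, had the smallest p-value in PARP1CKO (log2 fold change -0.13 ± 0.0482, adjusted p = 0.364). In PARP2CKO it was Ctss, a lysosomal protease, with 1926 and 1903 CPM in the controls and 2375 and 2184 CPM in PARP2CKO (log2 fold change 0.25 ± 0.0686, adjusted p = 0.801). Ctsl, a related protease, had a difference between the effects of 0.40 ± 0.169 (adjusted p = 0.639). None of the 7 genes of this group passed in these comparisons.

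In the other groups the genes with the smallest p-values were likewise short of the threshold. For PARP1 deletion these were Tlr12 (log2 fold change -0.37), the adaptor Ticam2 (0.10), the ubiquitin enzyme Ube2n (-0.07), the kinase Ripk1 (-0.10), the transcription factor Irf7 (0.55) and the inhibitor Sigirr (-0.45), with adjusted p-values from 0.338 for Sigirr to 0.676 for Tlr12. For PARP2 deletion they were Tlr5 (-0.12), the adaptor Pik3ap1 (0.18), the inhibitory kinase Irak3 (-0.14), the IKK subunit Ikbkg (0.12), the NF-kB subunit Rela (-0.07) and the deubiquitinase Tnfaip3 (0.18), with adjusted p-values from 0.888 to 0.977. For the difference between the effects they were Tlr12 (0.42), Ticam2 (-0.24), Irak3 (-0.20), Ikbkg (0.19), Irf7 (-0.87) and Tnfaip3 (0.24), with adjusted p-values from 0.571 to 0.832.

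Between the control groups of the lines 4 of the 54 passed, 3 higher and 1 lower in PARP2 WT, beside 3.16% of all genes tested. Cd36 was higher by 0.38 ± 0.0723 (adjusted p = 0.0290). Lbp, which carries lipopolysaccharide to Cd14, had 6.67 and 7.498 CPM in PARP1 WT and 10.22 and 10.25 CPM in PARP2 WT (log2 fold change 0.53 ± 0.101, adjusted p = 0.0298). Ikbke, a kinase upstream of interferon regulatory factors, was higher by 0.25 (adjusted p = 0.0443). Cd180, a relative of Tlr4 that B cells and macrophages carry, was lower, with 496 and 476 CPM against 407 and 390.4 CPM (log2 fold change -0.29 ± 0.0587, adjusted p = 0.0378). Leaving out any 1 of the 4 WT libraries ended all 4 of these calls, and none of the 54 then passed, where between 0.633% and 2.38% of all genes tested did. Unc93b1, which escorts the endosomal receptors out of the endoplasmic reticulum, had 273 and 276 CPM against 299 and 324 CPM (log2 fold change 0.18, adjusted p = 0.0805).

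In the remaining groups the smallest p-values between the controls belonged to Tlr11 (-0.52, adjusted p = 0.214), Ticam1 (0.10, adjusted p = 0.380), Traf6 (-0.17, adjusted p = 0.0977), Irf7 (-0.34, adjusted p = 0.474) and Nfkbia (0.15, adjusted p = 0.120), where each first value is a log2 fold change. None of these 5 passed.

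Between the CKO groups 9 of the 54 passed, 6 higher and 3 lower in PARP2CKO, beside 10.3% of all genes tested. Cd36 was higher by 1.01 (adjusted p = 0.000334), and it passed in 17 of 17 alternative settings. The proteases Ctsl (0.78) and Ctss (0.31), the kinases Irak2 (0.23) and Map3k8 (0.36) and the inhibitor Tnfaip3 (0.25) were also higher on the log2 scale. Irf7, itself an interferon response gene, was lower, with 20.3 and 32.9 CPM in PARP1CKO against 10.3 and 12.6 CPM in PARP2CKO (log2 fold change -1.22, adjusted p = 0.0154). Irak3 (-0.21) and the ubiquitin ligase Traf6 (-0.19) were lower as well. Of 17 alternative settings, Ctsl passed in 16, Irf7 in 15 and Ctss in 14. Tnfaip3 and Irak3 passed in 13, Map3k8 and Traf6 in 11, and Irak2 in 7. Without PARP2CKO replicate 1, 1 of the 54 passed, Cd36, where 1.75% of all genes tested did.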

How the data were processed

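Total RNA of IMCs (4 µg per library, stranded total RNA kit, 75-base single-end reads, 10% FBS in the medium) was sequenced in 8 libraries. Per the labels and the study's methods, the authors checked reads with FastQC 0.11.2, trimmed them with fastq-mcf, mapped them to mm10 with TopHat2 2.0.12, marked duplicates with Picard 1.127 and counted them on genes with featureCounts of Subread. The deposited values are raw counts per gene. The annotation, the strand setting and the treatment of duplicates are not given in the sources used here.

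Counts were analysed in R 4.3.3 with edgeR 4.0.16: filterByExpr, TMM factors (between 0.965 and 1.03), a mean for each of the 4 groups fitted on all 8 libraries, the quasi-likelihood test, Benjamini-Hochberg adjustment over 13197 genes and a threshold of 0.05. Confidence intervals are 95%. An exact permutation test of 2 against 2 libraries cannot go below p = 0.333, so none was used. Replicates differed by more than sampling noise (mean chi-square per gene between 8.56 and 12.9), and each library counted as 1 replicate. The tests were checked on simulated counts of PARP1CKO against PARP1 WT, where the share of false calls was above the threshold with all 3, most so with the likelihood-ratio test and least with the quasi-likelihood test, DESeq2 lying between. DESeq2 1.42.0 and limma 3.58.1 served the alternatives and edgeR.

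The members and gene lists were chosen with earlier results of these data known. Named genes are the 10 members, Parp1 and Parp2, each pathway gene that passed, the gene with the smallest p-value in each pathway group, and the 3 genes most correlated with the member whose group means spanned the widest range. The cell markers and Y-linked genes named singly were chosen after their values had been seen. The comparison of the CKO groups, the block with crossed numbers and the ratio of Tlr8 to Tlr7 were added after the data had been seen. Further fits used other scalings, tests, filters and sets of libraries, a replicate block, and each library left out in turn. Gene positions and lengths come from GENCODE M21 on GRCm38 and promoters from RefSeq on GRCm38.p6. Adgre1 was matched as Emr1, and Ly6g was not matched in the table. Markers of T and NK cells summed to between 1.34 and 3.50 CPM, and of osteoclasts to between 62.0 and 77.6 CPM. Protein sequences were not used here.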

Additional observations from a re-analysis of the deposited data

Results flagged for a closer look

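Parp2 had effects that differed between the deletions by the test of the difference, by -0.82 on the log2 scale (standard error 0.0639, adjusted p = 0.00634), as the deletion of PARP2 in 1 of the lines implies. Parp1, deleted in the other line, differed by 2.13 (standard error 0.245, adjusted p = 0.0552) and did not pass. Its PARP2 WT libraries were far apart, at 251 and 155 CPM. The test can therefore miss a large difference. No listed receptor, Myd88 or named pathway gene passed that test, where 0.0152% of all genes tested did. The likelihood-ratio test and DESeq2 called Cd36.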

How the results depend on the processing

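The call of Tlr8 between the lines, for controls and for CKO groups, kept its direction and its side of the threshold under all alternatives run. None of the 10 members passed in PARP1CKO, in PARP2CKO or in the difference between the deletions under any alternative run. With library size only, the log2 fold change turned to -0.0011 for Tlr8 in PARP1CKO, to -0.019 for Tlr4, -0.025 for Tlr9 and -0.021 for Myd88 in PARP2CKO, and to -0.0021 for Tlr1 in the difference. With no filter, Tlr9 in PARP2CKO was -0.00026. The cause was not tested.

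The number of members that passed between the control groups was 2 with library size only, the likelihood-ratio test, DESeq2, no filter and the crossed block, Tlr9 being the second. In these settings 3.11%, 6.9%, 4.16%, 4.97% and 2.86% of all genes tested passed. Between the CKO groups the number was 2 with the 4 CKO libraries alone and 5 with DESeq2 and with no filter, Tlr7 being the fifth. Here 7.69%, 9.42% and 10.4% of all genes tested passed. Of all genes, 146, 82 and 101 passed in PARP1CKO with the likelihood-ratio test, DESeq2 and no filter, 39, 27 and 26 in PARP2CKO, and 72, 38 and 61 in the difference. Between the control groups 910 passed with the likelihood-ratio test and 872 with no filter. Of the pathway list 1 passed in PARP1CKO and in the difference with the likelihood-ratio test, DESeq2 and no filter, and 1 in PARP2CKO with DESeq2. Between the CKO groups 14 passed with no filter and 5 with the 4 CKO libraries alone, beside 10.4% and 7.69% of all genes tested.

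Leaving out each library in turn, where a lone sample was assumed to vary like the other groups, gave these ranges of log2 fold changes, each crossing 0. In PARP1CKO they were -0.062 to 0.090 for Tlr1, -0.25 to 0.13 for Tlr2, -0.12 to 0.061 for Tlr4, -0.011 to 0.11 for Tlr6, -0.057 to 0.19 for Tlr7, -0.099 to 0.11 for Tlr8, -0.10 to 0.19 for Tlr9, -0.048 to 0.0032 for Myd88 and -0.018 to 0.22 for Ticam2. In PARP2CKO they were -0.044 to 0.12 for Tlr1, -0.085 to 0.056 for Tlr2, -0.038 to 0.054 for Tlr4, -0.17 to 0.017 for Tlr7, -0.12 to 0.14 for Tlr9, -0.055 to 0.062 for Myd88 and -0.27 to 0.050 for Tlr5. In the difference they were -0.059 to 0.10 for Tlr1, -0.15 to 0.23 for Tlr2, -0.053 to 0.13 for Tlr4, -0.00057 to 0.21 for Tlr8, -0.19 to 0.10 for Tlr9 and -0.033 to 0.084 for Myd88, and between the control groups -0.17 to 0.010 for Tlr4.

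The counts over all genes then ranged from 1 to 34 in PARP1CKO, from 4 to 19 in PARP2CKO, from 1 to 16 in the difference, from 85 to 566 between the control groups and from 234 to 1458 between the CKO groups. Those of the pathway list ranged from 0 to 1 in PARP1CKO and in the difference, from 0 to 5 between the control groups and from 1 to 10 between the CKO groups, and those of the members from 1 to 2 and from 1 to 5 in the last 2 comparisons.

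Replicate numbers are shared by the labels of all groups, but with 2 pairs per line they mark only a number (correlation of deviations -0.13 in the PARP1 line and 0.15 in the PARP2 line). With a replicate block, 0 members passed in either deletion, 1 between the control groups and 4 between the CKO groups, and 2 pathway genes passed between the control groups. Of all genes tested, 0.106% then passed in PARP1CKO, 0.0455% in PARP2CKO, 2.39% between the control groups and 8.65% between the CKO groups. With crossed numbers of PARP1CKO as a block, 0, 0, 2 and 3 members passed in the same comparisons, and 2 pathway genes passed between the control groups. The shares of all genes tested were 0.136%, 0.053%, 2.86% and 9.23%. Levels per kilobase depend on the length used, as given above. Tlr3 and Tlr9 had the fewest counts of the members, with 4361 and 6078 over the 8 libraries.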
